A study of Mus musculus with 4 samples.

Results

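Serpins and the plasminogen activator system were described by 9 genes in mouse mammary tumour cells: the secreted proteases Plau and Plat, the receptor Plaur, the secreted inhibitor Serpine2 and the clade B serpins Serpinb2, Serpinb6a, Serpinb6b, Serpinb9 and Serpinb9b. The genes were chosen by name as a family, after the fold changes of both comparisons were known, so every count and fold change below is a description of these libraries. Each symbol matched 1 row of each deposited table, 9 of 22440 rows in the first and 9 of 11708 in the second. All 9 were at 1 FPKM or above (fragments per kilobase of transcript, scaled to the fragments of the library) in at least 1 library of each table.

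Polyadenylated RNA was sequenced from 4 cultures of the MMTV-Myc cell line, mouse mammary tumour cells in which the mammary tumour virus promoter, active in mammary epithelium, drives Myc. Mammosphere cells (day 20) were grown in suspension on low attachment plates with EGF and bFGF at 20 ng/ml each and passaged every 4 days, and were set against bulk cells (day 0) grown with 2% FBS and 10 µg/ml insulin. Cbx8 knockdown cells (sh68) were set against cells with a control hairpin, whose genotype is labelled wild type. The control hairpin is named shLuc in one field and shScr in another. The hairpins were delivered by lentivirus (pLKO.1), and cells were kept in 2 µg/ml puromycin. Cbx8 is a chromodomain subunit of Polycomb repressive complex 1. The sources used here do not give strain, age of the tumour, number of clones or whether the hairpin cultures grew attached or as spheres. Each group was 1 library, so no spread between cultures was measured and no test was run.

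Urokinase (Plau) and tissue plasminogen activator (Plat) are serine proteases that cut plasminogen to plasmin, which degrades fibrin and activates other matrix proteases. The urokinase receptor, Plaur, holds urokinase at the cell surface. Serpins are suicide inhibitors: a protease cuts the serpin's exposed loop and is trapped as a covalent complex. The clade B serpins mostly stay inside cells, where they act on proteases of lysosomes and of cytotoxic granules, and urokinase and its inhibitors are widely studied in invasion of breast tumours.

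The sequence before the transcription start was taken from RefSeq promoters of build GRCm38.p6, which held an entry for 7 of the 9 genes (all but Plau and Plat). The 250 bases before the start were searched on both strands for 5 motifs: AP-1 (TGANTCA), CRE (TGACGTCA), TEAD (GGAATG), the GC box (GGGCGG) and the TATA box (TATAAA). The windows of 5 genes are shown in lower case with motif matches in capitals. Serpinb2 and Plaur had the largest differences in the mammosphere comparison below, and Serpinb9b and Serpinb2 in the knockdown comparison. Serpine2 had the opposite direction, and Serpinb9 is the neighbour and paralog of Serpinb9b. The window of Serpinb6b, also at least 2-fold lower in mammospheres, is not shown.
Serpinb2, chr1:107511173-107511422, plus strand: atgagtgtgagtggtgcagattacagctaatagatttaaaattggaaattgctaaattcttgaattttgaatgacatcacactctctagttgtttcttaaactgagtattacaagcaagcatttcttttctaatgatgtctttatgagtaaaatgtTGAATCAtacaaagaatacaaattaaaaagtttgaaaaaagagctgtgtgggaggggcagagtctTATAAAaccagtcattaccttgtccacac
Plaur, chr7:24462233-24462482, plus strand: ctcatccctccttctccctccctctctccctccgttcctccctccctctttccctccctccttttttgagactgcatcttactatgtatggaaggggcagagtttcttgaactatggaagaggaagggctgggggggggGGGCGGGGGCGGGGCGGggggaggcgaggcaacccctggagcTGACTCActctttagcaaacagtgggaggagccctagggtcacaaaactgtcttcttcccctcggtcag
Serpine2, chr1:79858666-79858915, minus strand: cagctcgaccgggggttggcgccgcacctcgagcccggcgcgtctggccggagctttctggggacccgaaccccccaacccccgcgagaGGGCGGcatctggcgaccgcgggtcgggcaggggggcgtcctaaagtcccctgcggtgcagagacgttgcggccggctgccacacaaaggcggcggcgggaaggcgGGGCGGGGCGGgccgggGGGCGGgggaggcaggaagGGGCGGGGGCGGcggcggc
Serpinb9b, chr13:33027164-33027413, plus strand: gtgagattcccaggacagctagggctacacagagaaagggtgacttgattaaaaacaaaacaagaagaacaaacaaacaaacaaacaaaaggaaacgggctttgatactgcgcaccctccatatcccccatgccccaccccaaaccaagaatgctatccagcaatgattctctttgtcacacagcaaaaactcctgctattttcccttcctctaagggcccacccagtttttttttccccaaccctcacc
Serpinb9, chr13:33004291-33004540, plus strand: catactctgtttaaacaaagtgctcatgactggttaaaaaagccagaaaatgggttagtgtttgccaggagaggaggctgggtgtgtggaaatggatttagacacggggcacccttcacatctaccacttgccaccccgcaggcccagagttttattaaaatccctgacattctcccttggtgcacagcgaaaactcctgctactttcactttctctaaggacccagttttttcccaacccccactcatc

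An AP-1 match lay in the windows of Serpinb2 (TGAATCA, 94 to 88 bases before the start) and Plaur (TGACTCA, 69 to 63 bases before it), 2 of the 7 genes, and in 6.75% of all 32851 promoters. Serpinb2 also held a TATA box at 29 to 24 bases before the start, a motif found in 12.4% of all promoters. Its RefSeq entry has a second start downstream, whose window covers the same 2 matches. The Serpine2 window was GC-rich (78.8% G or C) with 6 GC box matches, some of which overlap each other, and the motif occurred in 32.7% of all promoters. Plaur held 3 GC boxes, Serpinb6a 2 and Serpinb6b 1. A TEAD match lay only in the Serpinb6a window among the 7 genes (12.6% of all promoters), and none of the 7 held the CRE (1.55% of all promoters). The Serpinb6a matches are those of its first RefSeq start, and the window of its second start held none of the 5 motifs. Serpinb9 and Serpinb9b held none of the 5 motifs. These paralogs, which lie side by side, had the most similar windows of any pair, with 56.2% identity over the alignment, against 36.2% to 46.3% for the other 20 pairs. A match is only a match of letters, and sites outside these windows were not searched.

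The mammosphere library had lower transcript levels than the bulk library for 8 of the 9 genes, and a higher level for Serpine2. Plaur, Plat, Serpinb2 and Serpinb6b were at least 2-fold lower on the log2(FPKM + 1) scale, a scale that understates differences of low genes. Plau, Serpinb6a, Serpinb9 and Serpinb9b were lower by less than 2-fold. Of all 11603 rows at 1 FPKM or above in either library, 17.3% were at least 2-fold lower (2002 rows) and 3.54% at least 2-fold higher (411 rows), so that lower rows prevailed in the library as a whole. The median of the 9 genes was −0.70, beside −0.24 over all rows. Higher rows were 17.0% of all rows past 2-fold, but 29.7% after centring on the median of rows expressed in both libraries, which lay at −0.19, and 33.2% with upper quartiles set equal, which raised mammosphere values by 0.29 (log2).

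Among the proteases, Plat was at 63.1 FPKM in mammospheres and 330.3 FPKM in bulk cells, 5.23-fold lower without a pseudocount (log2 −2.37 on the scale above). Plau was at 166 FPKM in mammospheres and 271 FPKM in bulk cells (log2 −0.70). Plat was thus the more abundant activator in bulk cells and Plau the more abundant in mammospheres, where it stood 2.63-fold above Plat per transcript length. The receptor Plaur was at 42.9 FPKM in mammospheres and 281 FPKM in bulk cells, 6.55-fold lower (log2 −2.68). Plau and Plaur were at nearly equal FPKM in bulk cells (ratio 0.963), and Plau was 3.87-fold above its receptor in mammospheres. In the authors' deposited table q was 0.00153 for Plat, 3.16e-05 for Plaur and 0.647 for Plau. Of the 4045 rows with a test in the authors' deposited table, 10.2% were lower at q under 0.05, as were 3 of the 6 genes tested there, and 1.73% were higher, as were 0 of the 6.

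Among the inhibitors of the activators, Serpine2 (protease nexin 1, an inhibitor of thrombin and urokinase) was at 304 FPKM in mammospheres and 156 FPKM in bulk cells. This was 1.96-fold higher without a pseudocount and 0.96 on the log2 scale, just under the 2-fold limit, and it passed that limit after centring (1.15) and with equal upper quartiles (1.26). In the authors' deposited table its q was 0.435. Serpinb2 (plasminogen activator inhibitor 2) was at 5.86 FPKM in mammospheres and 48.9 FPKM in bulk cells, 8.34-fold lower (log2 −2.86), with q = 1.67e-06 in the authors' deposited table. It had the largest difference of the 9 genes on this scale, and 2.61% of all rows had a lower log2 ratio. With a pseudocount of 5 FPKM the difference was larger in Plaur (log2 −2.58) than in Serpinb2 (log2 −2.31).

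Of the intracellular serpins of chromosome 13, Serpinb6b was at 3.41 FPKM in mammospheres and 19.8 FPKM in bulk cells, 5.79-fold lower (log2 −2.24). Its paralog Serpinb6a, an inhibitor of cathepsin G, was at 156 FPKM in mammospheres and 232 FPKM in bulk cells (log2 −0.57), a smaller difference than that of Serpinb6b. Serpinb9, an inhibitor of granzyme B, was at 16.8 FPKM in mammospheres and 22.2 FPKM in bulk cells (log2 −0.38). Its paralog Serpinb9b was the least abundant of the 9 genes, at 2.95 FPKM in mammospheres and 3.23 FPKM in bulk cells (log2 −0.10, but 0.09 after centring and 0.13 with equal upper quartiles). Serpinb6b, Serpinb9 and Serpinb9b were rows that the authors did not test in this comparison.

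**Figure D1:**
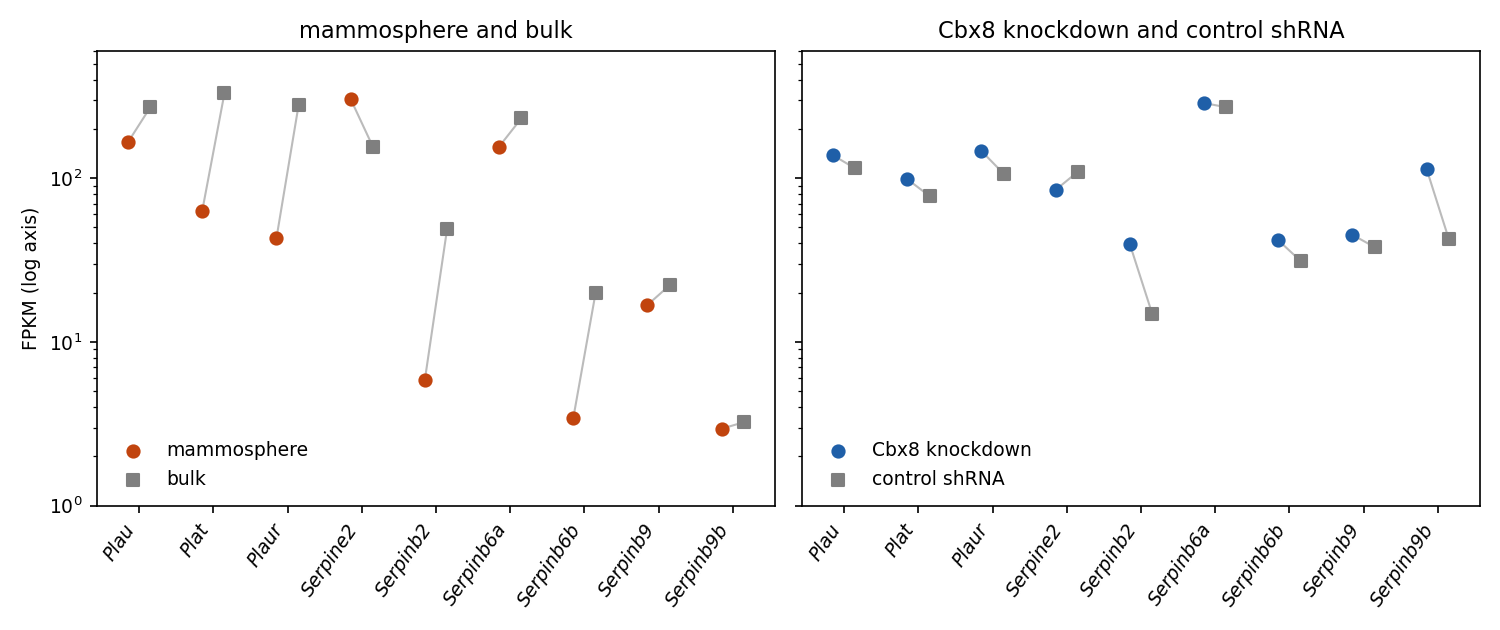
Level of each of the 9 genes in FPKM on a log axis, 1 library per point, with mammosphere (circles) and bulk (squares) cells on the left and Cbx8 knockdown (circles) and control shRNA (squares) cells on the right. Plat, Plaur, Serpinb2 and Serpinb6b lie 5.23-fold to 8.34-fold lower in mammospheres, and Serpinb2 and Serpinb9b lie 2.65-fold and 2.68-fold higher in knockdown cells; the tables were normalized separately.

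Markers of other cell types were lower in mammospheres as well. Of 15 leukocyte markers, 14 reached 1 FPKM and all 14 were at least 2-fold lower in mammospheres, where their summed level was 8.53 FPKM, against 296 FPKM in bulk cells, and 7 of the 15 were listed at 0. Of 12 fibroblast markers, 10 were at least 2-fold lower, with summed levels of 4.32 FPKM in mammospheres and 533 FPKM in bulk cells, and 3 were listed at 0 in mammospheres. Of 6 endothelial markers 2 reached 1 FPKM, both lower in mammospheres, with summed levels of 0.375 FPKM in mammospheres and 6.53 FPKM in bulk cells. Cytotoxic lymphocyte markers, of which Nkg7 is also in the leukocyte list, summed to 0.0216 FPKM in mammospheres and 23.1 FPKM in bulk cells, with 5 of 6 listed at 0 in mammospheres. Apart from Cd14 and Fbln2, the counted markers of these lists were under 1 FPKM in mammospheres, so the FPKM minimum fixed their direction. In RNA from whole cultures, fewer cells of a type and less RNA per cell cannot be told apart, and the part of these markers in the lower serpin and activator levels was not tested. Of 10 luminal epithelial markers 7 reached 1 FPKM, and 5 of these were at least 2-fold lower in mammospheres. Their list summed to 75.7 FPKM in mammospheres and 930.4 FPKM in bulk cells, mostly from the keratins Krt8 (5.14 FPKM in mammospheres and 334 FPKM in bulk cells) and Krt18 (58.2 FPKM in mammospheres and 570.4 FPKM in bulk cells). Krt19, named after its values were seen, was at 9.65 FPKM in mammospheres and 9.08 FPKM in bulk cells. Of 8 basal markers 3 reached 1 FPKM, all at least 2-fold lower, and the list summed to 6.78 FPKM in mammospheres and 51.7 FPKM in bulk cells. Of the counted epithelial markers, Cldn3, Cdh1, Epcam, Krt14 and Krt17 were under 1 FPKM in mammospheres, so the FPKM minimum fixed their direction. The epithelial adhesion genes Epcam and Cdh1, named after their values were seen, were near 0 in mammospheres (0.0908 and 0.0135 FPKM) and at 1.06 and 1.04 FPKM in bulk cells.

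Most other genes of the plasminogen system that were measured had lower levels in mammospheres. Of 39 listed genes, 26 reached 1 FPKM in either library, 14 of them at least 2-fold lower and 4 at least 2-fold higher, with a median of −1.04 beside −0.24 over all rows. Over all rows 17.3% were at least 2-fold lower and 3.54% higher. Genes under 1 FPKM in 1 library, such as Spint2, were counted through the other alone, which fixed their direction. Among rows with a test by the authors, significant or not, the counts past 2-fold were 7 lower and 1 higher. The q of these rows in the authors' deposited table went up to 0.485. With a pseudocount of 5 FPKM the counts were 10 lower and 4 higher. After centring or with equal upper quartiles they were 10 lower and 5 higher. Plasminogen itself, Plg, was listed at 0 in both libraries. Among the lower genes, F2rl1 (the protease-activated receptor 2) was at 1.15 FPKM in mammospheres and 29.5 FPKM in bulk cells, and Spint2 (a Kunitz inhibitor of membrane serine proteases) was at 0.434 FPKM in mammospheres and 11.8 FPKM in bulk cells. F2r, the thrombin receptor, was at 17.4 FPKM in mammospheres and 116 FPKM in bulk cells. The 4 higher genes, named like Lrp1 below after their values were seen, were Mst1, Vldlr, Spint1 and Igf2r. Vldlr, an endocytic receptor for complexes of proteases with serpins, was at 13.5 FPKM in mammospheres and 2.56 FPKM in bulk cells, and Igf2r, which binds Plaur, at 108 FPKM in mammospheres and 47.9 FPKM in bulk cells. Lrp1, the main clearance receptor for such complexes, was at 47.7 FPKM in mammospheres and 56.1 FPKM in bulk cells. The list was drawn up with earlier results of these data known.

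**Figure D2:**
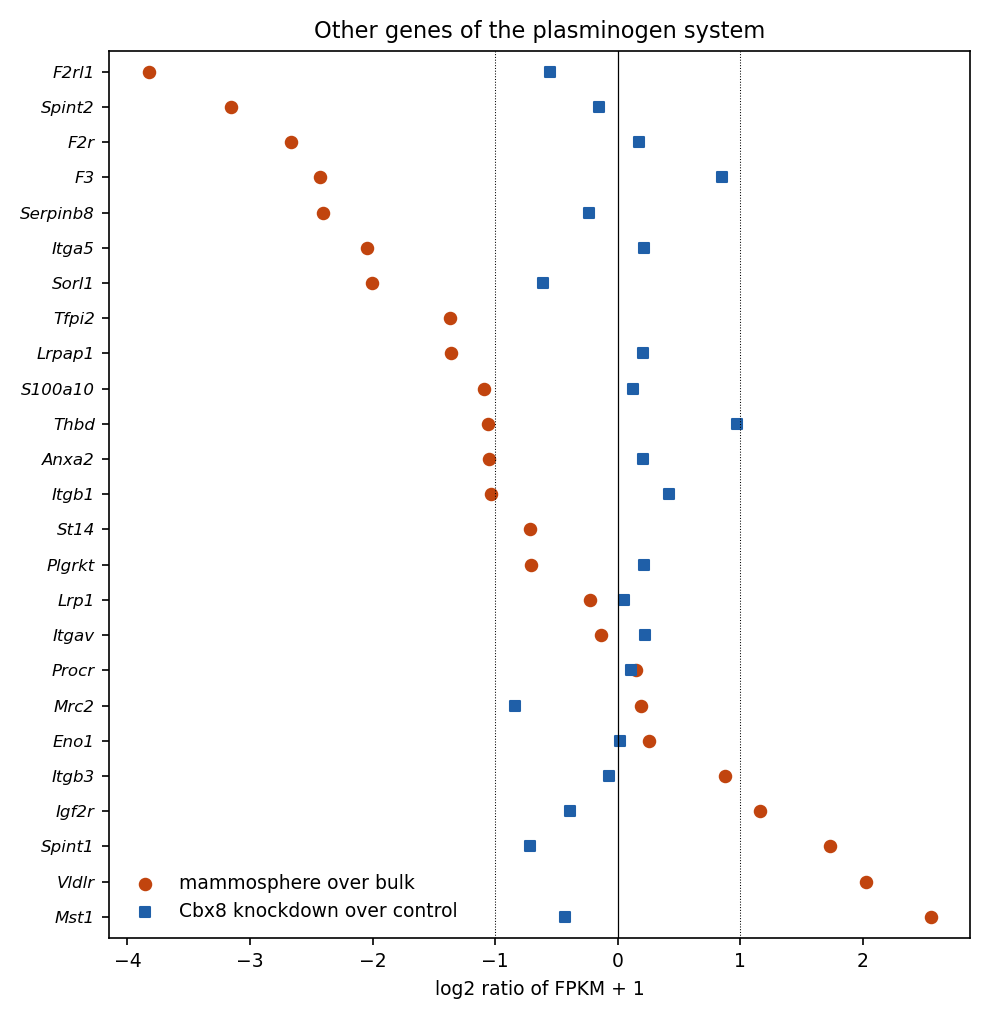
Log2 ratio (with 1 FPKM added) of 25 other plasminogen system genes that reached 1 FPKM, sorted by mammosphere over bulk (circles), with Cbx8 knockdown over control (squares) on the same axis and dotted lines at 2-fold. F2rl1 lies farthest left at −3.83, whereas in the knockdown comparison none of the 22 genes shown is past 2-fold on this scale.

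Cbx8 itself was at 1.23 FPKM in the knockdown library and 4.74 FPKM in the control library, 3.84-fold lower, with q = 0.385 in the authors' deposited table. In knockdown cells 8 of the 9 genes had higher transcript levels than in control cells, and Serpine2 had a lower level. Serpinb9b and Serpinb2 were at least 2-fold higher. Over all 10685 rows at 1 FPKM or above, 0.299% were at least 2-fold higher (32 rows) and 0.449% at least 2-fold lower (48 rows). The median of the 9 genes was 0.34, beside −0.01 over all rows.

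Serpinb9b was at 113 FPKM in knockdown cells and 42.2 FPKM in control cells, 2.68-fold higher (log2 1.40), at rank 15 from the top of the 10685 rows. Serpinb2 was at 39.5 FPKM in knockdown cells and 14.9 FPKM in control cells, 2.65-fold higher (log2 1.35), at rank 16. Both had q = 0.0325 in the authors' deposited table, whose test also compared 1 library with 1. Of the 11708 rows in the authors' deposited table, 0.128% were higher at q under 0.05, with these 2 of the 9 genes among them, and 0.0769% were lower. Their log2 ratios ranged from 1.32 to 1.42 (Serpinb9b) and from 1.16 to 1.40 (Serpinb2) over the alternative settings tried.

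The remaining 7 genes differed by less than 2-fold between the hairpin libraries. Plaur was at 146.5 FPKM in knockdown cells and 106 FPKM in control cells (log2 0.46), and Serpinb6b at 41.8 FPKM in knockdown cells and 31.2 FPKM in control cells (log2 0.41). The proteases were close together, with Plat at 98.7 FPKM in knockdown cells and 77.8 FPKM in control cells (log2 0.34), and Plau at 138 FPKM in knockdown cells and 115 FPKM in control cells (log2 0.27). Serpinb9, the neighbour and paralog of Serpinb9b, was at 45.1 FPKM in knockdown cells and 37.9 FPKM in control cells (log2 0.24). Serpinb9b was therefore 2.51 times as abundant as Serpinb9 per transcript length in knockdown cells and 1.11 times as abundant in control cells. Serpinb6a, the most abundant of the 9 in both hairpin libraries, was at 288 FPKM in knockdown cells and 271 FPKM in control cells (log2 0.09). Serpine2 was at 84.8 FPKM in knockdown cells and 109.6 FPKM in control cells (log2 −0.37). All 7 had q = 0.999 in the authors' deposited table.

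Of the 39 other plasminogen system genes, 24 were listed in this table and 23 reached 1 FPKM, 14 of them with positive and 9 with negative log2 ratios and none past 2-fold with 1 FPKM added (median 0.06). With a pseudocount of 0.1 FPKM 1 gene passed 2-fold in each direction. The highest ratios were in Thbd (thrombomodulin), at 2.41 FPKM in knockdown cells and 0.742 FPKM in control cells (3.25-fold higher without a pseudocount), and F3 (tissue factor), at 9.70 FPKM in knockdown cells and 4.95 FPKM in control cells. Mrc2, a collagen receptor that associates with Plaur, was at 1.37 FPKM in knockdown cells and 3.23 FPKM in control cells (2.36-fold lower without a pseudocount), and Spint1 at 2.37 FPKM in knockdown cells and 4.54 FPKM in control cells. In the authors' deposited table these 4 genes had q between 0.464 and 0.999. Marker lists were short in this table, which held 3 of 15 leukocyte and 5 of 12 fibroblast genes and none of the endothelial or cytotoxic lymphocyte genes. The luminal list had 7 of 10 genes there, with 5 at 1 FPKM or above and none past 2-fold, and summed to 434 FPKM in knockdown cells and 441 FPKM in control cells. Of 8 basal markers 2 were listed and 1 reached 1 FPKM, the keratin Krt14, at 10.5 FPKM in knockdown cells and 1.09 FPKM in control cells. This was 9.61-fold higher (log2 2.46), a larger ratio than that of Serpinb2 or Serpinb9b, with q = 0.0325 in the authors' deposited table, and its part in their higher levels was not tested.

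Set side by side, the comparisons, which share no library, placed all 9 genes on opposite sides of 0: 8 were lower in mammospheres and higher in knockdown cells, and Serpine2 was the reverse. With mammosphere ratios centred or scaled to equal upper quartiles, Serpinb9b was higher in both. Cbx8 itself had lower levels in both comparisons, at 1.48 FPKM in mammospheres and 3.46 FPKM in bulk cells (2.34-fold lower, not tested by the authors). Over the 10383 rows at 1 FPKM or above in both tables, 58.4% had opposite signs, 35.2% lower in mammospheres and higher in knockdown cells and 23.2% the reverse. Serpinb2 was 1 of 18 rows (0.173%) at least 2-fold lower in mammospheres and at least 2-fold higher in knockdown cells. Distance was taken in the plane of both log2 ratios, among 7510 genes at 5 FPKM or above in at least 1 library of each table. The 9 genes and predicted or small RNA models were left out of these. The genes nearest to Serpinb2 were Loxl4 (a lysyl oxidase, distance 0.41) and Sorbs3 (an adhesion adaptor, 0.42). Nearest to Serpinb9b were Cldnd1 (0.50), Slc45a4 (0.51) and Sgcb (a sarcoglycan, 0.52), each 0.97 to 0.99 higher in knockdown cells and 0.37 to 0.40 lower in mammospheres on the log2 scale. Serpinb9b itself was under that 5 FPKM minimum in mammospheres and bulk cells (2.95 and 3.23 FPKM). Likeness here rests on 2 ratios from 4 libraries.

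**Figure D3:**
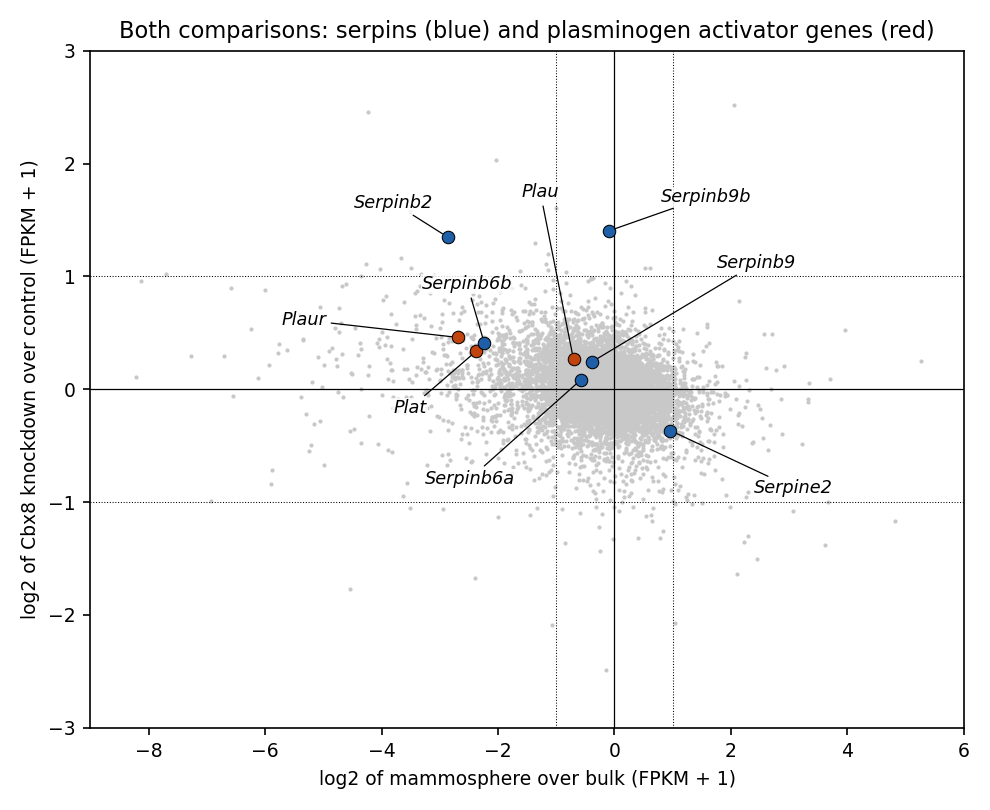
Log2 ratio of mammosphere over bulk (horizontal) and of Cbx8 knockdown over control (vertical), with 1 FPKM added, for 10383 rows (grey, of which 3 lie outside the axes); serpins are blue, Plau, Plat and Plaur red, and dotted lines mark 2-fold. Serpinb2 lies at −2.86 and 1.35, Serpinb9b at −0.10 and 1.40, and Serpine2 alone among the 9 lies right of and below 0.

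The clade B genes form clusters, and the levels within a cluster differed between neighbours. On chromosome 13 (mm9), 15 Serpinb rows span 1161 kb. Serpinb6b (33057381 to 33070906), Serpinb9 (33096409 to 33109824) and Serpinb9b (33119282 to 33132427) are adjacent, and Serpinb6a (34009786 to 34094663) is the last of the cluster. Of the 15 rows, 6 reached 1 FPKM in mammospheres or bulk cells: those 4 genes, Serpinb1a and Serpinb6c. The other 9 stayed under 0.25 FPKM in both libraries, among them all 8 Serpinb rows between Serpinb9b and Serpinb6c. In the hairpin libraries the 3 adjacent genes were at 31.2 FPKM or above, and of them only Serpinb9b was past 2-fold, here and under each alternative tried.

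On chromosome 1, 12 Serpinb rows span 748 kb, of which Serpinb7, Serpinb2 (109407999 to 109422177) and Serpinb8 reached 1 FPKM in mammospheres or bulk cells. All 3 were at least 2-fold lower in mammospheres. Serpinb8 was at 0.898 FPKM in mammospheres and 9.07 FPKM in bulk cells, and Serpinb7 at 1.81 FPKM in mammospheres and 6.23 FPKM in bulk cells. In the hairpin libraries Serpinb2 had the higher level in knockdown cells and both neighbours the lower: Serpinb7 was at 1.29 FPKM in knockdown cells and 1.81 FPKM in control cells, and Serpinb8 at 0.857 FPKM in knockdown cells and 1.19 FPKM in control cells. Both neighbours were near the 1 FPKM minimum and differed by less than 2-fold (log2 −0.30 and −0.24). Their q was 0.999 in the authors' deposited table, so their direction is uncertain. Serpine2 lies elsewhere on chromosome 1 (79790895 to 79855240), Plau on chromosome 14 (21655883 to 21662610), Plat on chromosome 8 (23868215 to 23893320) and Plaur on chromosome 7 (25247518 to 25260892).

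**Figure D4:**
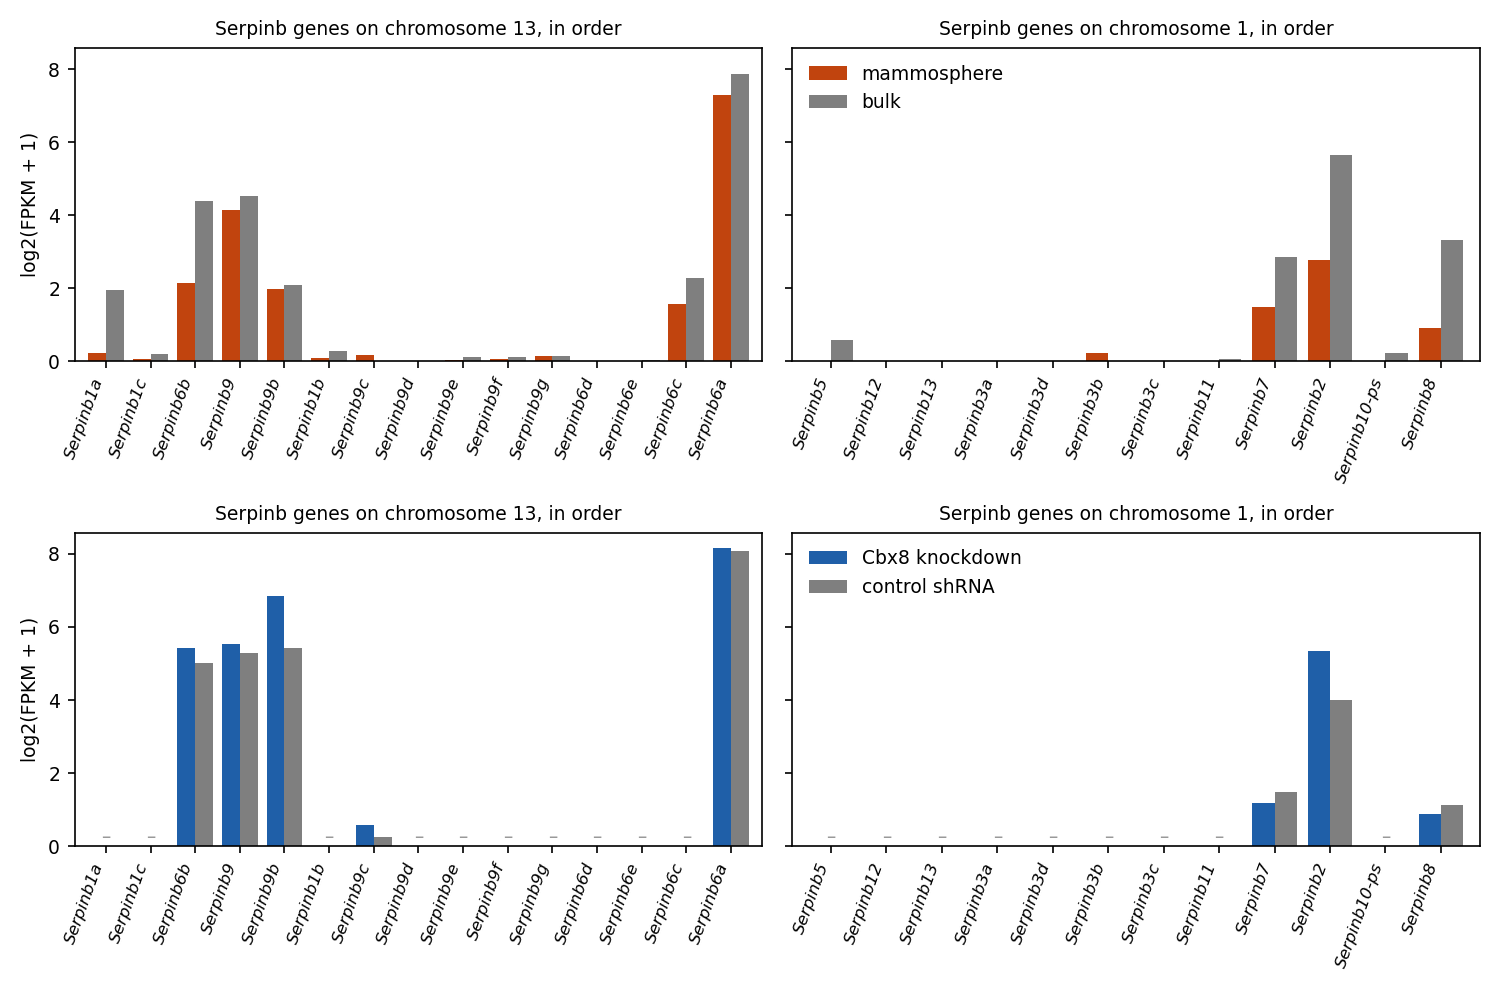
Log2(FPKM + 1) of every Serpinb row in the order of the genes along chromosomes 13 (left) and 1 (right), in mammosphere and bulk cells (top) and Cbx8 knockdown and control shRNA cells (bottom), with a dash where the knockdown table holds no row. Expression is limited to 6 of 15 and 3 of 12 genes at 1 FPKM or above in the top panels, and in the bottom panels Serpinb9b and Serpinb2 stand above their controls.

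Serpinb paralogs are alike in sequence, so reads could in principle be shared between them. In GENCODE M21 transcripts, none of the 100-base stretches of the longest coding transcript of Serpinb2, Serpinb9, Serpinb6b, Serpine2, Plau, Plat or Plaur occurred in a transcript of another gene. Serpinb9b shared 2.03% of its stretches, all with the predicted gene Gm36099, and Serpinb6a shared 12.2%, all with 1110046J04Rik, which overlaps it. Transcripts of Serpinb6a and Serpinb6b were 80.3% identical over aligned bases, and those of Serpinb9 and Serpinb9b 74.2%. By the same measure, which leaves out gaps, all other pairs of these Serpinb genes were 63.4% to 72.8% identical. The reads were also 100 bases long, and no exact stretch of that length was shared within either pair, although the sources used here do not say how reads that match several places were counted.

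Proteases that the intracellular serpins are known to inhibit, with related enzymes, were listed for comparison. Of 18 such genes, 14 reached 1 FPKM in mammospheres or bulk cells, 9 of them at least 2-fold lower and 1 higher in mammospheres (median −3.01). Over all rows 17.3% were at least 2-fold lower and 3.54% higher. Each of the 9 was under 1 FPKM in mammospheres, and the higher gene was under 1 FPKM in bulk cells. The FPKM minimum therefore fixed their directions. The higher gene, named after its values were seen, was Hpn (hepsin, a membrane serine protease), at 9.12 FPKM in mammospheres and 0.804 FPKM in bulk cells. The granzymes Gzmc, Gzmf and Gzmg were listed at 0 in mammospheres and were at 30.5, 38.3 and 37.9 FPKM in bulk cells. Granzyme B itself (Gzmb), named here after its values were seen as the target of Serpinb9, was listed at 0 in mammospheres and was at 10.8 FPKM in bulk cells. Cathepsin S (Ctss) was likewise listed at 0 in mammospheres and was at 50.8 FPKM in bulk cells. Serpinb9 was 1.32-fold lower in the same library, in which all 7 granzymes of the list were at 0. Leukocyte markers and cytotoxic lymphocyte markers, which include Gzma and Gzmb of this list, were lower in the same library, as given above. In the hairpin libraries, 5 of the 18 reached 1 FPKM and none was past 2-fold (1 higher with a pseudocount of 0.1 FPKM), with Ctsl (cathepsin L) at 228 FPKM in knockdown cells and 344 FPKM in control cells. Gzme was at 1.34 FPKM in knockdown cells and 0.370 FPKM in control cells. The inflammatory caspase Casp1 was at 4.91 FPKM in knockdown cells and 3.20 FPKM in control cells, and the apoptotic caspase Casp8 at 35.2 FPKM in knockdown cells and 32.7 FPKM in control cells.

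Serpins outside clade B were mostly low in mammospheres. Of 29 listed genes 10 reached 1 FPKM in either library, all with negative log2 ratios and 8 of them past 2-fold (median −3.46). Over all rows 17.3% were at least 2-fold lower, and the median was −0.24. Most of the 10 were under 1 FPKM in mammospheres and counted through bulk cells alone, which fixed their sign. Serpina3f and Serpina3g share 1 row, which these counts and the median of the list hold once for each gene. That row was at 0.325 FPKM in mammospheres and 17.04 FPKM in bulk cells, and the acute phase gene Serpina3n was at 0.545 FPKM in mammospheres and 18.2 FPKM in bulk cells. The Serpina3 genes are close copies whose reads may be split. In the hairpin libraries Serpinh1, the collagen chaperone of the family, was at 459 FPKM in knockdown cells and 353 FPKM in control cells (log2 0.38). Of the other clade B serpins, 4 of 22 reached 1 FPKM in mammospheres or bulk cells, 3 of them at least 2-fold lower (1 with a pseudocount of 5 FPKM), among them Serpinb1a, at 0.168 FPKM in mammospheres and 2.91 FPKM in bulk cells. Serpinb1a and Serpinb8 were under 1 FPKM in mammospheres, so the FPKM minimum fixed their direction. Serpinb6c was at 1.96 FPKM in mammospheres and 3.88 FPKM in bulk cells.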

How the data were processed

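Polyadenylated RNA from 4 cultures, 1 library in each group, was sequenced as 100-base single reads, per the labels' protocols. TopHat 1.4.0, Cufflinks 1.3.0, Cuffdiff (listed as 0.0.7), FastQC 0.10.0 and build mm9 are named in the submitters' processing notes, without settings. The authors deposited 2 Cuffdiff tables, each with FPKM per row for 2 libraries. Each deposited row also carries a log2 ratio, a p-value and a q-value by the authors. The tables were normalized separately, so ratios were taken within a table. Of the mammosphere rows, the authors tested 4045 and did not test 18363, and the rest (29 failed, 3 with too many fragments) were left out of counts here. Summary lines at the foot of the knockdown file were dropped. Depth is unknown: no counts are given, and whole-read steps were not seen at low FPKM (the most common ratio among 1565 rows under 0.15 FPKM in both libraries, in steps of 0.01 log2, covered 15 rows).

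Ratios were computed here as log2((FPKM + 1)/(FPKM + 1)), mammosphere over bulk and knockdown over control, and rows at 1 FPKM or above in either library were counted past 2-fold. A row under 1 FPKM in 1 library was counted through the other alone, which fixed the direction of its ratio. With 1 library per group no p-value was computed. The genes, lists and alternatives were chosen with earlier results of these data known. The naming rule took the 9 genes, Cbx8, up to 4 genes with the largest ratio from each of 4 lists and, for Serpinb2 and Serpinb9b, the 3 nearest genes; some of these are not reported here. All 165 list and marker genes matched a row of the mammosphere table and 61 a row of the knockdown table, Plgrkt and Serpinb10 by older symbols. The counting step was tested on simulated data. Coordinates of genes are those of the deposited tables (mm9), those of promoters are GRCm38.p6. Computation used Python 3.11.15, pandas 2.3.3 and numpy 2.4.6.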

Additional observations from a re-analysis of the deposited data

How the results depend on the processing

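The 9 genes gave 141 alternative log2 ratios under 8 alternatives. These were pseudocounts of 0.1 and 5 FPKM, no FPKM minimum or 5 FPKM, centring, equal upper quartiles, summed rows and tested rows only. Each gene had 1 row, so changed FPKM minimums, summed rows and tested rows only could not alter a ratio. Only the pseudocounts, centring and equal upper quartiles could. Of the 141 ratios, 139 stayed on their side of 2-fold. Both exceptions were Serpine2 in mammospheres, so that 1 of the 9 genes was at least 2-fold higher there after centring and 1 with equal upper quartiles, against 0 otherwise. The counts of 4 lower in mammospheres and 2 higher in knockdown cells stayed within 1.5 times. Over all rows, those higher in mammospheres numbered 668 with a pseudocount of 0.1, 143 with 5, 653 after centring, 792 with equal upper quartiles and 151 among tested rows. Those lower numbered 960 with a pseudocount of 5 and 654 among tested rows. Rows higher in knockdown cells numbered 88 with a pseudocount of 0.1 and 14 with 5, and those lower 114 and 18. The cause was not tested beyond these settings. No paired analysis was possible because each group had 1 library, and for the same reason none could be left out. Depth, and with it the precision of low rows such as Serpinb9b in mammospheres, is unknown.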

Other observations

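Levels across the tables cannot be compared strictly, because each table was normalized on its own, but they differed widely for some of these genes. Serpinb9b was at 2.95 FPKM in mammospheres and 3.23 FPKM in bulk cells, the lowest of the 9 genes in both, and at 113 FPKM in knockdown cells and 42.2 FPKM in control cells, at rank 4 of the 9 in knockdown cells and rank 6 in control cells. Serpinb6a was between 156 and 288 FPKM in all 4 libraries. Bulk cells and cells with the control hairpin are both labelled wild type, and the sources used here do not give the culture form of the hairpin cells.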
